A study of Mus musculus with 2 samples.

Results

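Polycystic and cystic kidney genes were described as a set of 6 genes, Pkd1, Pkd2, Pkhd1, Bicc1, Glis2 and Glis3, out of 32285 gene identifiers counted in nuclei of the developing mouse kidney. The 6 were taken by symbol, and each symbol matched 1 identifier in both libraries. Single-nucleus RNA sequencing had been run on pooled kidneys of male and female mice, with 1 library from embryos at E18.5 and 1 from pups at postnatal day 3 (P3). By their labels, the E18.5 mice were Mycf/f;Mycnf/f (no Cre), that is, with floxed Myc and Mycn genes that no recombinase cut, of mixed background. The P3 mice were labelled Wild type and C57BL/6J, whereas the methods of the study name a mixed background for all mice. Age, genotype, background, library and the release of the counting software therefore cannot be told apart. With 1 library per age there are no replicates and no test between ages, and nuclei of 1 library are not replicates. All intervals are exact 95% intervals that cover counting error only.

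After the quality limits, 21270 nuclei at E18.5 with 77321253 unique molecular identifiers (UMIs, counts of single captured RNA molecules) and 11765 nuclei at P3 with 70055219 UMIs remained. The median nucleus held 3132.5 UMIs at E18.5 and 4534 at P3, and 67 barcodes were shared by both libraries. Clusters of nuclei, made without the 6 genes, were named "-like" from markers outside the list, which gave 13 classes at E18.5 and 11 at P3 with at least 50 nuclei. The labelled tissue held kidney cell types, with 9 of 9 podocyte markers raised in the podocyte-like cluster and 8 of 8 proximal tubule markers raised in the larger proximal tubule-like cluster at both ages. These same markers gave the clusters their names. Other names rested on fewer, such as 3 of 6 for nephron progenitor-like and 3 of 8 for 1 interstitium-like cluster at E18.5. The smaller proximal tubule-like cluster had 4 of 8 at both ages. Clusters without a clear name held 34.9% of nuclei at E18.5 and 50.1% at P3, and are given here by their leading genes. A level is UMIs of the gene per 1000000 UMIs of all genes (CPM) in a class. Because capture differs with transcript and gene length, CPM values were compared between classes of nuclei and never between genes.

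Mutations of these genes cause cystic kidney disease, in which tubules widen into fluid-filled cysts, or, for Glis2, a fibrotic disease of the same family. Pkd1 and Pkd2 encode polycystin-1, a large receptor-like membrane protein, and polycystin-2, a cation channel, which form a complex in the primary cilium and are the genes of autosomal dominant polycystic kidney disease. Pkhd1 encodes fibrocystin, a membrane protein of cilia and the gene of the autosomal recessive form. Bicc1 encodes an RNA-binding protein with KH domains, and Glis2 and Glis3 encode zinc finger transcription factors, and mutations of Glis2 cause a form of nephronophthisis.

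The RNA of the 2 polycystins had different distributions over the kidney. Pkd1 was highest in interstitium-like nuclei at P3 and in interstitium-like and mural-like nuclei at E18.5, and its lowest values were in distal tubule-like nuclei at both ages, though not beyond counting error from the class above. Pkd2 was highest in distal and proximal tubule-like nuclei and varied little. Pkd1 lies on chr17:24549834-24596508 of mm10, on the plus strand, and spans 46.7 kb. At E18.5, Pkd1 was at 80.1 CPM in mural-like nuclei, the pericytes and smooth muscle cells of vessels, and at 79.7 CPM in interstitium-like nuclei, the stroma between tubules. Those values did not differ beyond counting error (ratio 1.01, interval 0.732 to 1.35). Endothelium-like nuclei followed at 61.5 CPM and nephron progenitor-like nuclei at 52.9 CPM. Proximal tubule-like nuclei were at 31.2 CPM, collecting duct-like nuclei at 27.4 CPM and distal tubule-like nuclei at 12.7 CPM. Leukocyte-like nuclei were at 23.7 CPM, on 9 UMIs. The distal tubule value rests on 7 UMIs, with an interval of 5.09 to 26.1 CPM, which overlaps those of 4 other classes, leukocyte-like, intercalated-like, collecting duct-like and podocyte-like.

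At P3, Pkd1 was at 113 CPM in interstitium-like nuclei, 86.3 CPM in endothelium-like nuclei, 33.6 CPM in proximal tubule-like nuclei and 24.0 CPM in distal tubule-like nuclei. The distal tubule value rests on 15 UMIs, and proximal over distal tubule-like nuclei was 1.40 with an interval of 0.836 to 2.53. Leukocyte-like nuclei were at 57.2 CPM, on 32 UMIs. The stromal class was thus above the endothelial class at P3 (ratio 1.31, interval 1.14 to 1.51), and the endothelial class above every epithelial class. Against proximal tubule-like nuclei, the interstitium-like class had 2.56 times the Pkd1 level at E18.5 (interval 2.18 to 3.02) and 3.37 times at P3 (interval 2.97 to 3.85). Within the stroma, the cluster led by Ebf2, Sntg1 and Tnxb was at 128 CPM at E18.5 and 122 CPM at P3. A mural-like cluster led by Ren1, the renin gene of the juxtaglomerular cells, was at 168 CPM at P3 (interval 104 to 257), but it held 32 nuclei and was left out of the order of classes.

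The last 693 bp of Pkd1 overlap the end of Tsc2, the tuberous sclerosis gene on the opposite strand. The strand setting of the counting is not given in the sources used here. The part of reads misassigned between Pkd1 and Tsc2 was not tested. Tsc2 had low counts, with 1364 UMIs over all nuclei at E18.5 and 1296 at P3. Across clusters, Tsc2 did not follow Pkd1. Pearson r was -0.16 over the 28 clusters at E18.5 and -0.20 over the 26 clusters at P3, on log2 of CPM plus 10. Of these clusters, 7 at E18.5 and 4 at P3 held over 50% called doublets, barcodes that look like mixed nuclei. All correlations given here are descriptions over these clusters of 1 library each, which share that library and differ in depth. By this measure, the genes with the pattern most like Pkd1 at both ages were Eml1, Arhgef25, Adgrl3, Ttc28 and Fbn1, with r of 0.89 at E18.5 and 0.865 at P3 for Eml1, a microtubule-binding protein, and 0.82 and 0.84 for Fbn1, the extracellular matrix protein fibrillin-1.

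Pkd2, on chr5:104459450-104505819 of mm10, plus strand, had a narrow range over the classes at both ages. Its level was 212 CPM in distal tubule-like nuclei and 209 CPM in proximal tubule-like nuclei at E18.5, and 254 and 234 CPM at P3. At neither age did these leading classes differ beyond counting error, with a ratio of 1.01 (interval 0.829 to 1.22) at E18.5 and 1.08 (interval 0.917 to 1.27) at P3. The lowest class was leukocyte-like at 73.6 CPM at E18.5 and 87.6 CPM at P3, which put the highest class 2.88-fold above the lowest at E18.5 (interval 1.89 to 4.51) and 2.90-fold at P3 (interval 2.09 to 4.08). Interstitium-like nuclei held 172 CPM at E18.5 and 183 CPM at P3. Hence the step from interstitium to distal tubule was 0.159-fold for Pkd1 at E18.5 (interval 0.0637 to 0.328) and 1.23-fold for Pkd2 (interval 1.01 to 1.478). At P3, the same step was 0.212-fold for Pkd1 (interval 0.118 to 0.351) and 1.39-fold for Pkd2 (interval 1.17 to 1.63). Across clusters, r between Pkd1 and Pkd2 was 0.11 at E18.5 and -0.25 at P3. The gene most like Pkd2 reached a lower r than the first gene of any other member. It was Tns1, a focal adhesion protein, with 0.722 at E18.5 and 0.715 at P3, followed by Rtkn, Zfp618, Gm50138 and Dcun1d4.

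**Figure D1:**
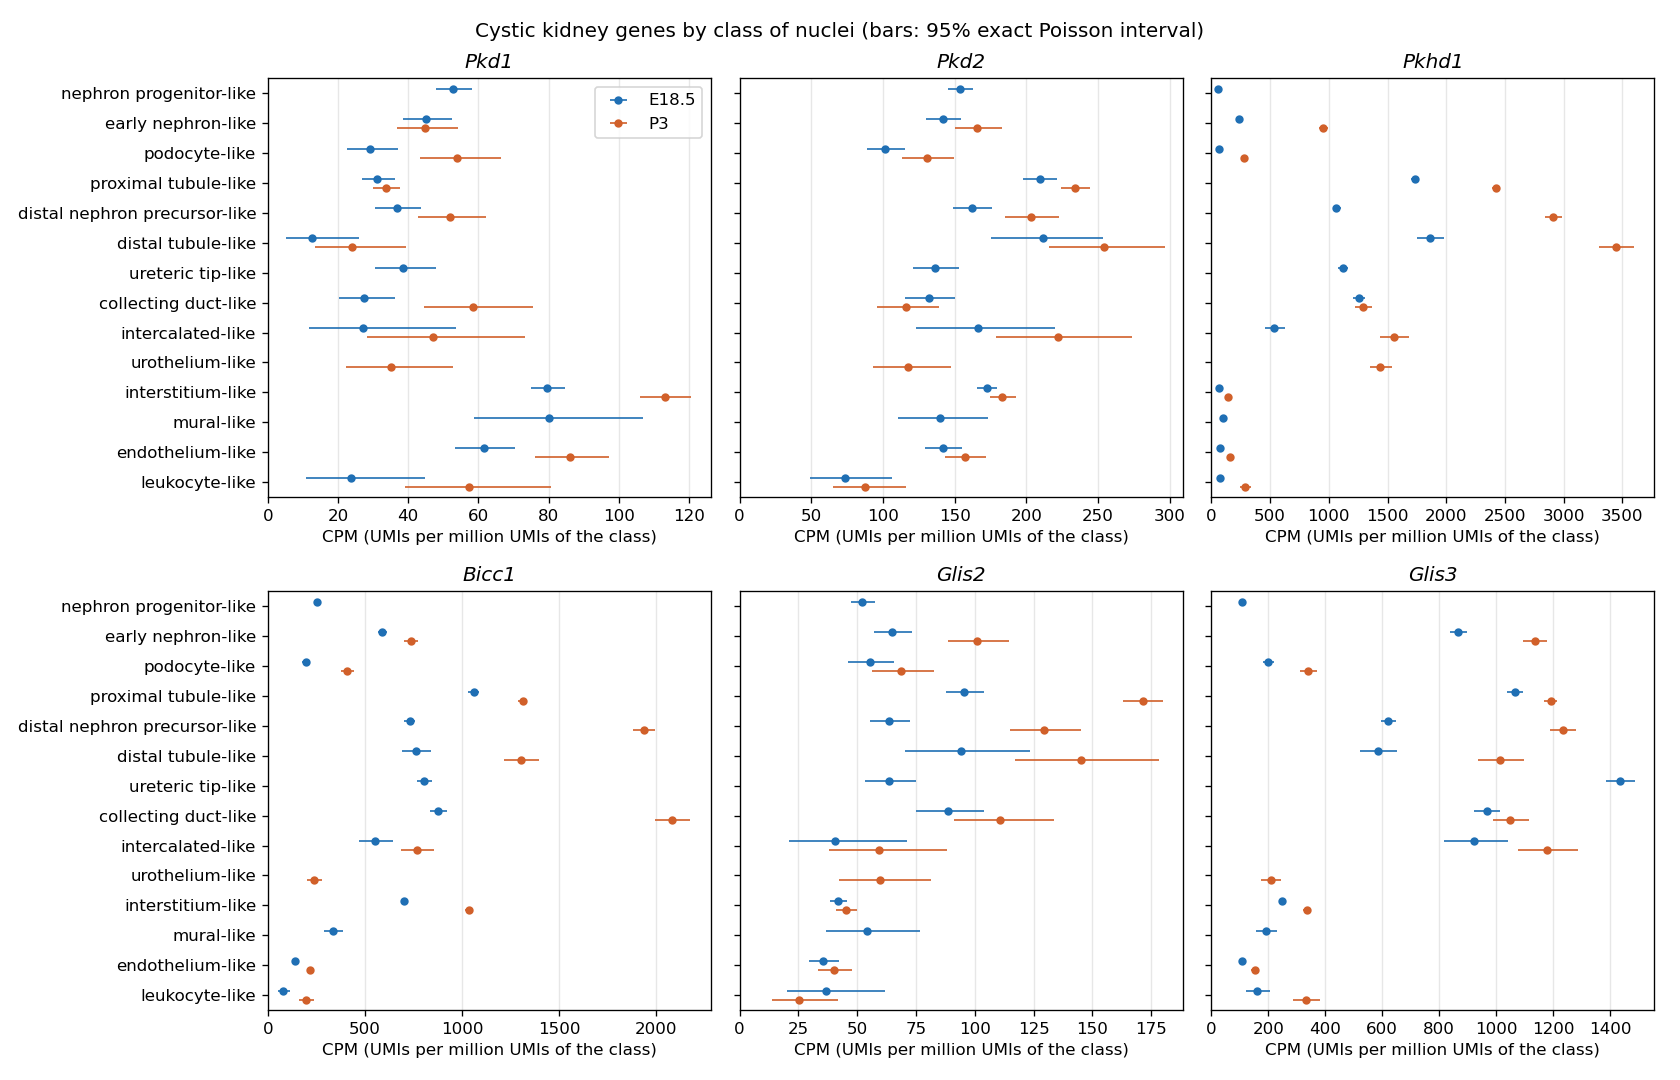
Level of each of the 6 genes by class of nuclei, in CPM on a linear axis that starts at 0 and differs between genes, with E18.5 in blue and P3 in orange. Points are sums over the nuclei of a class and bars are 95% exact Poisson intervals. Pkd1 is highest in interstitium-like nuclei at P3 (113 CPM), whereas Pkhd1 is at 138 CPM there and at 3447 CPM in distal tubule-like nuclei.

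Pkhd1 was high in tubular epithelium and in urothelium-like nuclei, a class named at P3 only. An unnamed E18.5 cluster led by the urothelium gene Upk1b was at 894 CPM. It lies on chr1:20057779-20618064 of mm10, on the minus strand, and spans 560 kb, of which exons cover 2.55%.

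At E18.5, Pkhd1 was at 1862 CPM in distal tubule-like nuclei, 1730 CPM in proximal tubule-like nuclei, 1256 CPM in collecting duct-like nuclei, 1120 CPM in ureteric tip-like nuclei and 1065 CPM in distal nephron precursor-like nuclei. Intercalated-like nuclei, the acid-secreting or base-secreting cells of the collecting duct, were at 537 CPM, and early nephron-like nuclei at 234 CPM. The remaining 6 classes, podocytes, progenitors, stroma, mural cells, endothelium and leukocytes, lay between 58.7 and 101 CPM. Distal tubule-like nuclei thus exceeded nephron progenitor-like nuclei 31.7-fold (interval 28.4 to 35.5). The cluster with the highest level of all was unnamed and led by Slc12a1, the salt transporter of the thick ascending limb, with 2478 CPM in 232 nuclei.

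At P3 the order began with distal tubule-like nuclei at 3447 CPM, distal nephron precursor-like nuclei at 2912 CPM and proximal tubule-like nuclei at 2425 CPM, each step beyond counting error. Intercalated-like nuclei followed at 1554 CPM, urothelium-like nuclei at 1440 CPM and collecting duct-like nuclei at 1291 CPM. The lowest class was interstitium-like at 138 CPM, 24.96-fold below distal tubule-like nuclei (interval 23.2 to 26.8). The distal nephron precursor-like class at P3 was made of a pair of clusters. The larger, with 325 nuclei and Nrcam, Sim2 and Lgr5 among its leading genes, was at 2431 CPM. The smaller, with 98 nuclei led by Sgcz, Ranbp3l and Prox1, had the highest Pkhd1 level of any cluster, 4693 CPM.

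Per nucleus, at least 1 Pkhd1 UMI was found in 91.8% of the E18.5 proximal tubule-like class, against 16.2% of the leukocyte-like class, with median depths of 3528 and 2300.5 UMIs. When every nucleus was thinned to 1000 UMIs, with 6 and 1 shallower nuclei left out, these shares were 71.4% and 8.81%. At P3 the unthinned shares were 98.9% and 49.2%, at median depths of 6153 and 2559 UMIs, and the thinned shares 87.4% and 22.7%, with 1 and 3 nuclei left out. The share in leukocytes, where the gene is not known to act, is read as background, so that levels near 60 to 100 CPM at E18.5 and near 140 to 290 CPM at P3 were not read as expression. The low-UMI cluster led by hemoglobin and mitochondrial genes at P3 (1571 nuclei) held 743 CPM, and the low-UMI cluster of 2736 nuclei at E18.5 held 212 CPM.

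The gene most like Pkhd1 in pattern was 4930486I03Rik, which lies inside Pkhd1 on the opposite strand (r 0.98 at both ages). It was followed by Eps8l2, Ttll10, Elovl7 and Shank2 with r of 0.93 to 0.98. Reads of the antisense gene and of Pkhd1 introns cannot be told apart without knowing the strand setting. The ratio of P3 over E18.5 was 1.13 for the antisense gene and 2.19 for Pkhd1. The part of misassigned reads in either gene was not tested. Pkd1 ran the other way, with an r of -0.68 with Pkhd1 at E18.5 and -0.78 at P3.

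Bicc1 was high in tubules and in stroma alike. It lies on chr10:70922832-71159700 of mm10, minus strand, and spans 237 kb. At E18.5 its level was 1060 CPM in proximal tubule-like nuclei, 877 CPM in collecting duct-like nuclei and 701 CPM in interstitium-like nuclei. Mural-like nuclei were at 334.5 CPM, endothelium-like nuclei at 142 CPM and leukocyte-like nuclei at 78.8 CPM. The stroma was thus 2.10 times the mural level (interval 1.82 to 2.43). At P3, Bicc1 was at 2085 CPM in collecting duct-like nuclei, 1938 CPM in distal nephron precursor-like nuclei, 1314 CPM in proximal tubule-like nuclei and 1037 CPM in interstitium-like nuclei, with 197 CPM in leukocyte-like nuclei. The leading class changed between the ages. Collecting duct-like nuclei had 0.828 times the proximal tubule-like level at E18.5 (interval 0.782 to 0.876) and 1.59 times at P3 (interval 1.51 to 1.66).

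The P3 cluster of 98 nuclei led by Sgcz had the highest Bicc1 level of any cluster, 3667 CPM, which was 2.49 times that of the other distal nephron precursor-like cluster (interval 2.34 to 2.65). Thinned to 1000 UMIs, 46.3% of interstitium-like nuclei at E18.5 and 60.4% at P3 had a Bicc1 UMI, against 8.81% and 13.4% of leukocyte-like nuclei. Unthinned, the shares were 78.3% and 91.7% in the stroma and 16.9% and 36.0% in leukocytes. Median depths were 2884 UMIs at E18.5 and 3740.5 at P3 in interstitium-like nuclei, and 20 and 5 of them were too shallow for thinning. Genes with the pattern most like Bicc1 were its antisense neighbour 4930533K18Rik (r 0.92 at both ages), Glis3 (0.75 and 0.79), Sestd1, Wwc2 and Dnah7b. The antisense gene went the other way between the ages, with a ratio of P3 over E18.5 of 0.799 against 1.62 for Bicc1.

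Glis2, on chr16:4594713-4624924 of mm10, plus strand, had low counts, with 4497 UMIs over all nuclei at E18.5 and 6513 at P3. Its highest class was proximal tubule-like at both ages, with 95.5 CPM at E18.5 and 171 CPM at P3. Distal tubule-like nuclei were at 94.0 and 145 CPM and did not differ from it beyond counting error. Interstitium-like nuclei were at 41.9 CPM at E18.5 and 45.3 CPM at P3, which was 0.439 times the proximal tubule level at E18.5 (interval 0.389 to 0.495) and 0.264 times at P3 (interval 0.236 to 0.295). Glis2 overlaps Pam16 on the opposite strand over 8461 bp. Kif12, a kinesin, and Cys1, the cilium protein cystin that is mutated in a mouse model of cystic kidney, were the genes most like Glis2, with r of 0.83 and 0.84 for Kif12 and 0.83 and 0.81 for Cys1. Fhitos, Kcnj16 and Shroom4 completed the first 5.

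Glis3, on chr19:28258851-28680077 of mm10, minus strand, spans 421 kb and was highest in ureteric tip-like nuclei at E18.5. At P3, the summed levels of most tubular classes were close. At E18.5, ureteric tip-like nuclei, the branching ends of the collecting system, held 1435 CPM, which was 1.35 times the 1066 CPM of proximal tubule-like nuclei (interval 1.29 to 1.41). Collecting duct-like nuclei were at 967 CPM and early nephron-like nuclei at 866 CPM. Nephron progenitor-like nuclei were at 108 CPM and did not differ beyond counting error from endothelium-like nuclei, with an interval of endothelium over progenitor of 0.887 to 1.14. At P3, 6 epithelial classes lay between 1014 and 1234 CPM, and the step from the first to the second, distal nephron precursor-like to proximal tubule-like nuclei, was within counting error (ratio 1.04, interval 0.994 to 1.08). That order depends on the clusters, since the ratio was 0.833 without the Sgcz-led cluster (interval 0.792 to 0.876), an alternative chosen after seeing the data, and 0.683 with Leiden clusters. The P3 cluster with the ureteric tip genes Slco4c1 and Ret among its leading genes, which stayed unnamed, had 1879 CPM in 281 nuclei, above every named class. That cluster also had 6 of 7 collecting duct markers raised. The Sgcz-led cluster had 2132 CPM, and the other distal nephron precursor-like cluster 991.5 CPM. An early nephron-like cluster led by Grid1 and Stxbp5l was at 1653 CPM, in a class at 1135 CPM. Clusters within these classes thus differed more than the classes did.

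Among the genes with the pattern most like Glis3, of 15622 ranked, were Gigyf2 (r 0.865 at E18.5 and 0.85 at P3), Arhgef38 (0.83 and 0.85) and Ttll10 (0.81 and 0.84), the last of which was also among those of Pkhd1. Among the members, Pkhd1, Bicc1, Glis2 and Glis3 resembled each other, with r of 0.58 to 0.82 in every pair at both ages. Pkd2 with Bicc1 lay in the same range, with r of 0.714 at E18.5 and 0.601 at P3. With Pkhd1, Glis2 and Glis3, Pkd2 had r of 0.353 to 0.61. Pkd1 had r of -0.50 to -0.78 with Pkhd1, Glis2 and Glis3 at both ages. With Bicc1, Pkd1 had r of -0.06 at E18.5 and -0.37 at P3.

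**Figure D2:**
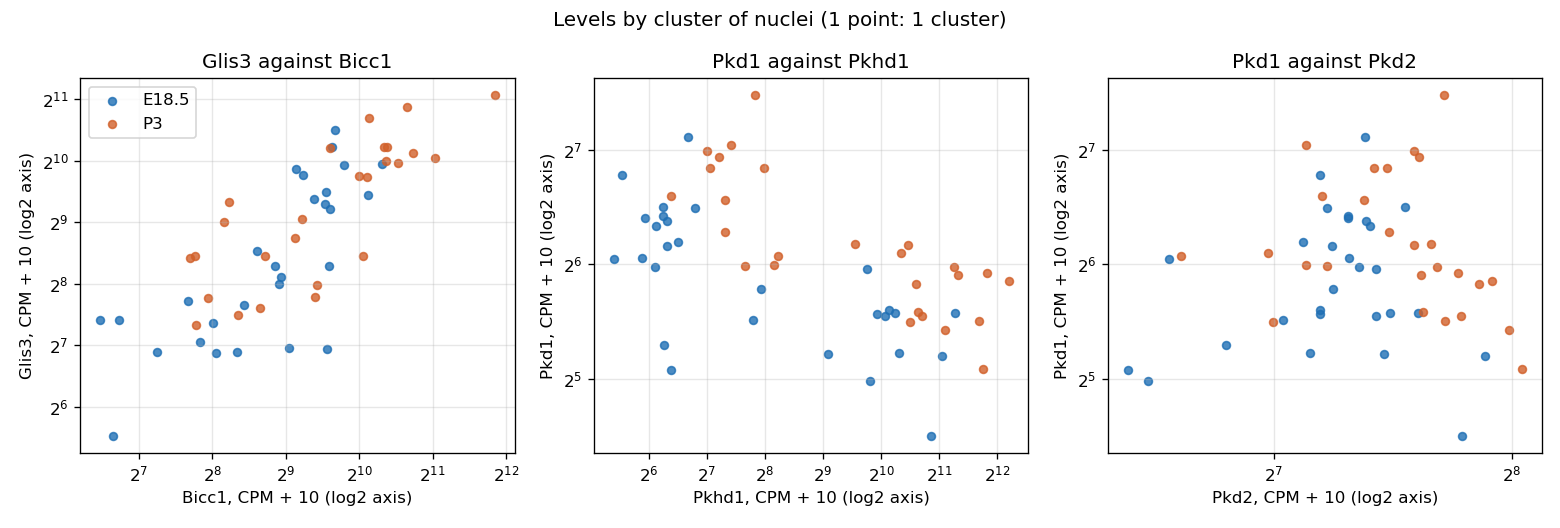
Levels by cluster of nuclei, as CPM plus 10 on log2 axes, with 28 clusters at E18.5 in blue and 26 at P3 in orange. Glis3 rises with Bicc1 (r 0.75 and 0.79), Pkd1 falls as Pkhd1 rises (r -0.68 and -0.78), and Pkd1 shows little relation to Pkd2 (r 0.11 and -0.25).

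Each class was next compared with all other nuclei of its library. In proximal tubule-like nuclei at E18.5, 2 of 6 members were at least 2-fold higher, Pkhd1 (3.91-fold) and Glis3 (2.34-fold), where 7.8% of 16386 genes were. At P3 they were Pkhd1 (2.46-fold) and Glis2 (2.11-fold), where 10.9% of 15990 genes were. Ureteric tip-like nuclei at E18.5 also had 2 of 6, Glis3 (3.03-fold) and Pkhd1 (2.16-fold), against 5.43% of genes. Distal nephron precursor-like nuclei at P3 had Pkhd1 (2.61-fold) and Bicc1 (2.07-fold), against 4.8% of genes. Collecting duct-like nuclei had 1 of 6 at both ages, Pkhd1 (2.42-fold) at E18.5, where 7.32% of genes were, and Bicc1 (2.19-fold) at P3, where 7.82% were. In distal tubule-like nuclei, Pkhd1 was 3.54-fold higher at E18.5, where 8.1% of genes were, and 2.99-fold at P3, where 7.68% were. Distal nephron precursor-like nuclei at E18.5 had Pkhd1 (2.09-fold), against 3.88% of genes.

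Pkd1 and Pkd2 reached 2-fold in no class at either age. None of the 6 did in podocyte-like nuclei, where 4.29% of genes did at E18.5 and 4.65% at P3, nor in interstitium-like nuclei, where 4.44% and 5.83% did. The same held for endothelium-like nuclei (6.77% and 7.49% of genes), leukocyte-like nuclei (10.7% and 12.3%), intercalated-like nuclei (9.14% and 7.62%) and early nephron-like nuclei (2.65% and 4.44%). It held for the classes measured at 1 age as well, nephron progenitor-like nuclei (3.43% of genes) and mural-like nuclei (5.88%) at E18.5 and urothelium-like nuclei (11.1%) at P3.

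A wider list of 51 genes of cystic and ciliary disease, which holds the polycystin and fibrocystin families, genes of polycystic liver, nephronophthisis genes, intraflagellar transport genes and cystic tumour suppressors among others, was counted in the same way. At E18.5, 47 of the 51 were measured. At most 4 of these reached 2-fold in any class, in proximal tubule-like nuclei, Glis1, Cys1 and Dcdc2a among them (8.51% of the list against 7.8% of all genes). Nephron progenitor-like nuclei had only Nphp4 above 2-fold, and interstitium-like nuclei none. At P3, 46 were measured, and 4 reached 2-fold in proximal tubule-like nuclei, Glis1, Cys1 and Flcn among them (8.70% of the list against 10.9% of all genes). The median ratio of the list in this class was 0.952 at E18.5 and 0.907 at P3, beside 0.883 and 0.818 for all genes. Glis1, the closest relative of Glis3, was at 306 CPM in proximal tubule-like nuclei at E18.5 and 594 CPM at P3, while ureteric tip-like nuclei at E18.5 held 7.05 CPM.

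Between the libraries, 4 of the 6 genes were at least 1.5-fold higher at P3 over all nuclei and 0 were at least 1.5-fold lower. With equal weight per nucleus, Glis2 was at 1.43 and 3 of the 6 passed. Of the 17860 genes with at least 100 UMIs, 10.7% were at least 1.5-fold higher and 22.5% at least 1.5-fold lower without that weighting. Pkhd1 went from 536 to 1174 CPM, a ratio of 2.19 (interval 2.17 to 2.22). Bicc1 went from 597 to 970 CPM (ratio 1.62), Glis2 from 58.2 to 93.0 CPM (ratio 1.60) and Glis3 from 500 to 759 CPM (ratio 1.52). Pkd1 went from 53.9 to 68.4 CPM (ratio 1.27, interval 1.22 to 1.32) and Pkd2 from 157 to 184 CPM (ratio 1.18, interval 1.15 to 1.21). The median of all genes was at 0.918 (-0.12 on the log2 scale), so that ratios relative to it are higher than those given. Of the wider list, 47 of 51 passed the minimum, with 3 higher (Glis1, 2.93-fold, and Anks6, 1.52-fold, among them), 8 lower and a median ratio of 0.992.

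The ratio between the libraries moved with the length of genes. Its median was 0.725 for 4829 genes spanning under 10 kb, 1.005 for 4916 genes of 30 to 100 kb, 1.24 for 654 genes of 200 to 400 kb and 1.23 for 357 longer genes. Against these, Pkhd1 at 2.19, Bicc1 at 1.62 and Glis3 at 1.52 lay above the upper quartile of their span, which was 1.49 for the longest genes and 1.43 for those of 200 to 400 kb. Glis2, at 30.2 kb, lay above the upper quartile of 1.23, as did Pkd1, while Pkd2 lay below it. The part of gene length in these ratios was not tested. Whether reads in introns were counted is not given in the sources used here.

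**Figure D3:**
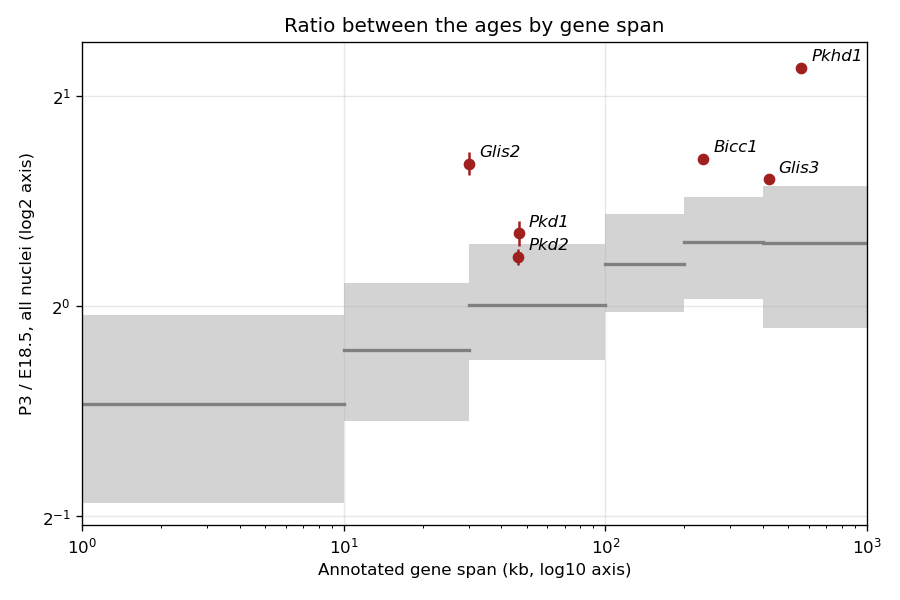
Ratio of P3 over E18.5 in all nuclei (log2 axis) against the annotated span of the gene in kb (log10 axis). Grey lines are medians and grey boxes the quartiles of all genes with at least 100 UMIs in each range of span, and red points are the 6 genes with 95% exact intervals. Pkd2 lies within the box of its span, and the others lie above theirs.

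The classes differ in makeup between the ages, so the ratio was also taken within them. In proximal tubule-like nuclei, Pkhd1 was 1.40-fold higher at P3 (1730 to 2425 CPM), Bicc1 1.24-fold, Glis3 1.12-fold and Glis2 1.79-fold, so that 1 of 6 passed 1.5-fold, where 12.2% of 11366 genes did. That class joined clusters of different leading genes at the ages. At E18.5 the cluster led by Slc22a27 and Cyp2j5 held 2105 CPM of Pkhd1 and the cluster led by Grid1 and Stxbp5l held 1207 CPM. The P3 clusters of the class held 2179 CPM (led by Slc5a12 and Slc34a1) and 3291 CPM (led by Aadat and Slc7a12), while a P3 cluster led by Grid1 and Stxbp5l was named early nephron-like and held 1579 CPM. For this reason, early nephron-like nuclei were not compared between the ages. In collecting duct-like nuclei, Bicc1 was 2.38-fold higher at P3 (interval 2.22 to 2.54) and Pkd1 2.13-fold (48 UMIs at E18.5 and 58 at P3, interval 1.43 to 3.19), while Pkhd1 did not differ beyond counting error (ratio 1.03, interval 0.959 to 1.10). These were 2 of 6, where 11.2% of 5541 genes were higher. Pkd1 went from 27.4 to 58.5 CPM there, beside 23.7 and 57.2 CPM in leukocyte-like nuclei (9 and 32 UMIs). In distal tubule-like nuclei, 4 of 6 were higher, with Pkhd1 at 1.85-fold, Glis3 at 1.74-fold, Bicc1 at 1.71-fold and Glis2 at 1.55-fold, where 11.4% of 2505 genes were. In interstitium-like nuclei, 1 of 6 was higher, Pkhd1 with 65.2 and 138 CPM, levels read as background, where 7.77% of 12732 genes were. Bicc1 reached 1.479-fold there and Pkd1 1.42-fold. This class, too, joined clusters of different leading genes. Its largest cluster was led by Epha3 at E18.5 (3134 nuclei) and by Il1rapl2 at P3 (1992 nuclei). Ratios in paired stromal clusters are given below.

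Distal nephron precursor-like nuclei also had 4 of 6 higher, where 8.41% of 8878 genes were. Pkhd1 was 2.73-fold higher (1065 to 2912 CPM), Bicc1 2.65-fold, Glis2 2.04-fold and Glis3 1.99-fold. The Sgcz-led cluster was not paired with an E18.5 cluster by the rule on shared leading genes given below. Sgcz was also a leading gene of the unnamed Slc12a1-led cluster at E18.5, which had 6 of 6 distal nephron precursor markers raised. Without the Sgcz-led cluster, the ratios were 2.28 for Pkhd1, 2.01 for Bicc1, 1.60 for Glis2 and 1.60 for Glis3. These 4 were thus above 1.5-fold with or without that cluster. In intercalated-like nuclei, 1 of 6 was higher, Pkhd1 (2.90-fold, 537 to 1554 CPM), where 16.2% of 1480 genes were. Pkd1 and Glis2 were under the minimum of 100 UMIs there. Outside the tubules, 4 of 6 were higher in podocyte-like nuclei (Pkd1, Pkhd1, Bicc1 and Glis3), where 11.3% of 6448 genes were. In leukocyte-like nuclei, Pkhd1, Bicc1 and Glis3 were the 3 members with at least 100 UMIs. All 3 were higher, where 18.3% of 2279 genes were. In endothelium-like nuclei, 2 were (Pkhd1 and Bicc1), where 7.97% of 8811 genes were. Pkhd1 levels in podocyte-like (67.0 and 274 CPM) and endothelium-like nuclei (69.3 and 157 CPM) were read as background. Glis3 was at 200 and 340 CPM in podocyte-like nuclei, beside 160 and 331 CPM in leukocyte-like nuclei. Pkd1 was at 29.1 and 53.9 CPM in podocyte-like nuclei, beside 23.7 and 57.2 CPM in leukocyte-like nuclei. At P3, Bicc1 was at 217 CPM in endothelium-like nuclei, beside 197 CPM in leukocyte-like nuclei. In podocyte-like nuclei, 30.5% were called doublets at P3 against 4.70% at E18.5, and the P3 level of Pkhd1 was 274 CPM with them and 155 CPM without. In leukocyte-like nuclei, the class read as background, 12.2% were called doublets at P3 against 2.50% at E18.5, and without them the P3 levels were 291 CPM for Pkhd1, 185 CPM for Bicc1 and 327 CPM for Glis3.

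Clusters of both libraries were then paired where each was the other's best partner and at least 3 of the 10 leading genes were shared, which gave 16 pairs, in a comparison chosen after the clusters had been seen. Summed over the pairs, 10.4% of gene values were at least 1.5-fold higher at P3, with 7.3% in the lowest pair and 18.6% in the highest. The ratio exceeded 1 in 16 of 16 pairs for Pkhd1 and in 14 of 16 for Pkd2. It exceeded 1 in 15 of 16 for each of Pkd1, Bicc1, Glis2 and Glis3. For each gene, these counts include ratios within counting error of 1. For Pkd1, Pkd2, Pkhd1 and Glis2, they also include pairs with too few UMIs for the 1.5-fold count. The share of all genes above 1 was not counted, so whether these genes differ from others in this direction cannot be told. Pkhd1 passed 1.5-fold in 11 of the 16 pairs, 14 of which had enough UMIs. In 6 of those 11 pairs Pkhd1 was at 73.6 CPM or less at E18.5, a level read as background. Bicc1 passed it in 9 of 16, Glis3 in 8 of 16, Glis2 in 5 of 16 with enough UMIs in 11, and Pkd1 in 3 of 16 with enough UMIs in 11. The Bicc1 and Glis3 counts include the leukocyte-like pair, with Bicc1 at 78.8 and 197 CPM and Glis3 at 160 and 331 CPM. Near that Glis3 level, its count also includes the podocyte-like pair (200 and 340 CPM) and the stromal pairs sharing Gria1 (115 and 339 CPM) and Ebf2 (113 and 244 CPM). It includes the Eya1-led pair too, with Glis3 at 108 CPM at E18.5. Pkd2 passed in 0 of 16 with enough UMIs in 14, and its ratios ran from 0.832 to 1.496 with a median of 1.196.

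The pairs also covered clusters left unnamed at either age. In the pair led by Slc12a1, Pkhd1 was at 2478 CPM at E18.5 and 3641 CPM at P3 (ratio 1.47), Bicc1 at 1099 and 1695 CPM (ratio 1.54), and Glis2 at 69.5 and 168 CPM (ratio 2.42, interval 1.82 to 3.27). Another pair shared Slco4c1, Ros1 and Nrg3 and was ureteric tip-like at E18.5 and unnamed at P3. In it, Pkhd1 was at 1120 and 2550 CPM (ratio 2.28) and Bicc1 at 805 and 1589 CPM (ratio 1.97). Glis3 was at 1435 and 1879 CPM (ratio 1.31, interval 1.24 to 1.38). Thus Pkhd1 was higher at P3 in that pair but did not differ beyond counting error in the collecting duct-like pair. The P3 cluster of the Slco4c1 pair had 6 of 7 collecting duct markers raised, against 5 of 7 in the P3 collecting duct-like cluster. The 2 pairs therefore do not separate tip from duct at P3. In the pair of urothelium genes led by Upk1b, Pkhd1 was at 894 and 1440 CPM (ratio 1.61) while Glis3 was at 161 and 208 CPM, a difference within counting error.

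Among stromal pairs, the one that shared Gria1, Il1rapl2 and Cntn4 had Glis3 at 115 CPM at E18.5 and 339 CPM at P3 (ratio 2.96, interval 2.66 to 3.30), Bicc1 at 518 and 1052 CPM (ratio 2.03) and Pkd1 at 70.6 and 113 CPM (ratio 1.60). Glis3 in leukocyte-like nuclei was at 160 CPM at E18.5 and 331 CPM at P3, so that the Glis3 levels of this stromal pair were not read as expression. The Ebf2-led pair moved otherwise, with Pkd1 at 128 and 122 CPM (ratio 0.952, interval 0.626 to 1.44) and Bicc1 at 749 and 678 CPM (ratio 0.905, interval 0.764 to 1.07), both within counting error. An unnamed pair shared Nrxn3, Kcnip1 and Cpa6, and its P3 cluster had 4 of 8 interstitium markers raised, with another class close. In that pair Glis3 was at 362 and 419.5 CPM (ratio 1.16, interval 1.07 to 1.25) and Bicc1 at 381 and 549.5 CPM (ratio 1.44).

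The greatest ratio of any member was that of Glis3 in the clusters led by Eya1, a regulator of nephron progenitors. Glis3 was at 108 CPM in 2329 nuclei at E18.5 and at 632 CPM in 872 nuclei at P3, 5.86-fold higher (interval 5.43 to 6.33), where 10.4% of 11299 genes passed 1.5-fold. At least 1 Glis3 UMI was found in 24.5% of nuclei at E18.5 and 78.3% at P3, at median depths of 3140 and 4761 UMIs. In leukocyte-like nuclei these shares were 25.6% and 47.7%, at median depths of 2300.5 and 2559 UMIs. Thinned to 1000 UMIs, the Eya1-led clusters had 9.52% at E18.5 and 37.2% at P3, against 11.9% and 28.4% in leukocyte-like nuclei, with 7 and 0 nuclei left out of the former and 1 and 3 of the latter. The E18.5 value was thus at background, and at P3 the level was 632 CPM beside 331 CPM in leukocyte-like nuclei. Without called doublets the levels were 106 and 627 CPM. Bicc1 (1.13-fold), Glis2 (1.21-fold), Pkd1 (1.28-fold) and Pkd2 (1.10-fold) differed less in the same pair, and Pkhd1 was 2.54-fold higher (58.7 to 149 CPM, levels read as background).

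The markers of these Eya1-led clusters moved with Glis3. Of the 6 nephron progenitor markers, 3 were lower at P3, with Six2, the progenitor transcription factor, from 28.9 to 11.1 CPM, Cited1 from 33.0 to 1.07 CPM and Meox1 from 15.9 to 4.29 CPM. Tmem100 of the same list was 2.53-fold higher (interval 2.19 to 2.93), Uncx was at 1.11-fold and Eya1 at 0.914-fold, and the summed level of the list went from 2186 to 2066 CPM. Of the 7 early nephron markers, 3 were higher, Lhx1 (7.47-fold), Jag1 (4.80-fold) and Wnt4 (4.44-fold), and the sum went from 177 to 814 CPM. These are genes of the vesicles that form when progenitors turn into epithelium. Because another class came close in its markers, the P3 cluster carried no name. The part of this shift in the Glis3 ratio was not tested.

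**Figure D4:**
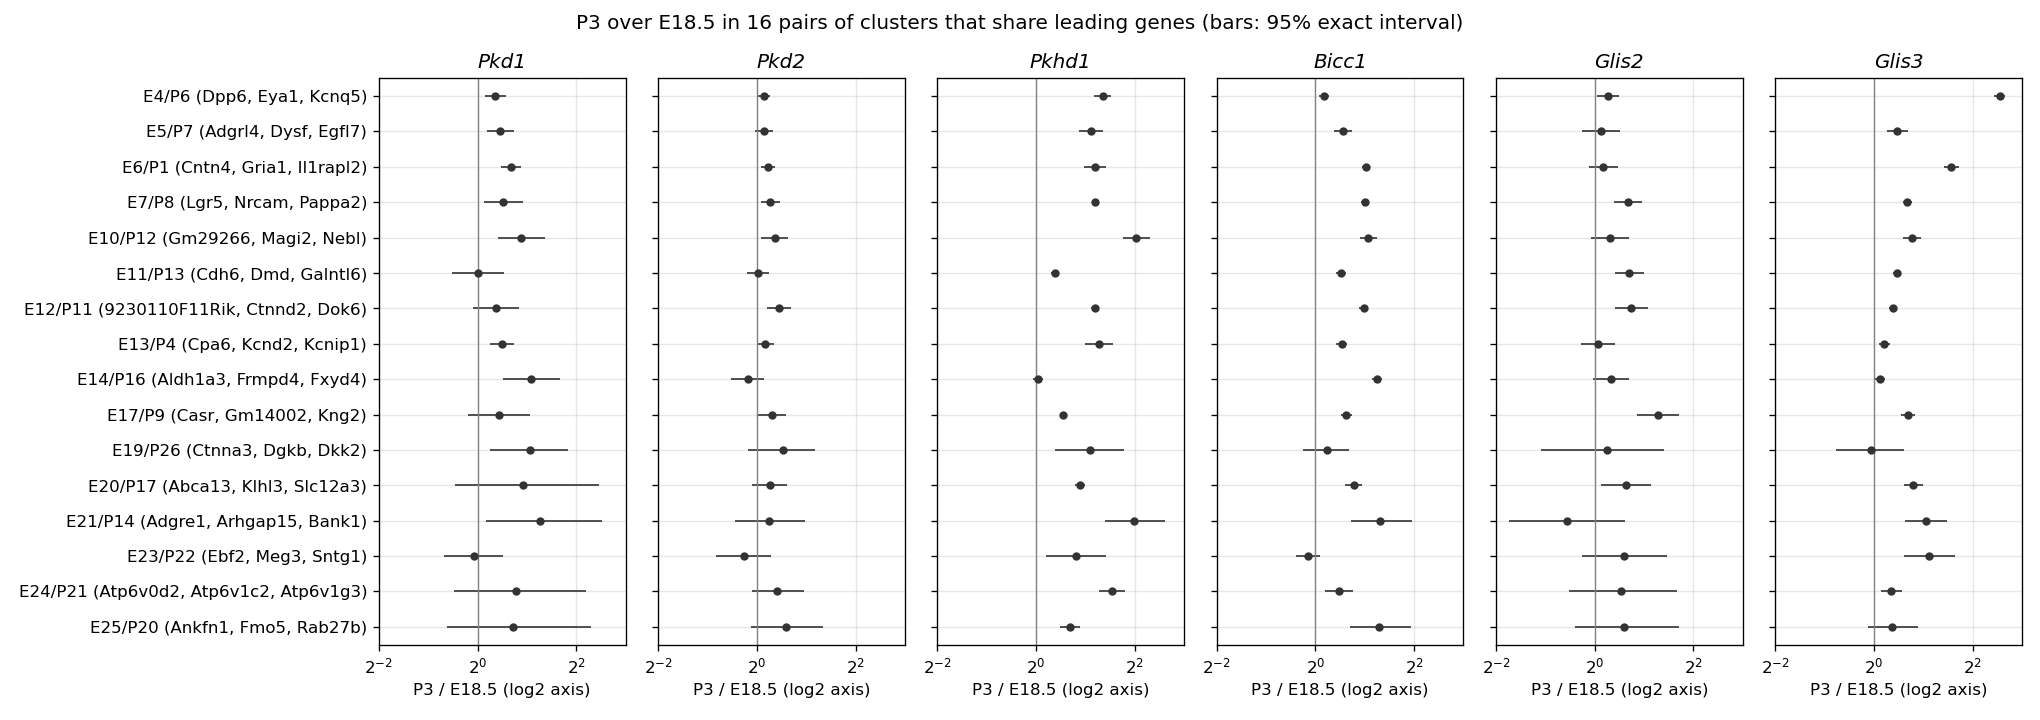
Ratio of P3 over E18.5 on a log2 axis for the 6 genes in 16 pairs of clusters, named by their E18.5 (E) and P3 (P) cluster numbers and 3 shared leading genes, with 95% exact intervals. Pkd2 stays between 0.832 and 1.496, and Glis3 is 5.86 in the pair led by Eya1. Pkhd1 is above 1 in 16 of 16 pairs and each of the other genes in 14 or 15. These counts include ratios within counting error of 1 and, for some genes, pairs with few UMIs. The share of all genes above 1 was not counted.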

How the data were processed

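Kidney nuclei of pooled mice had been sequenced with the Chromium 3′ assay, in 1 library at E18.5 and 1 at P3. The authors deposited counts, whole numbers of UMIs per gene and barcode without normalization, made with Cell Ranger. The submitters' processing notes name release 5.0.1 and build mm10 for both libraries, but the header of the E18.5 matrix gives 7.0.0 and that of P3 gives 5.0.1. The annotation release, intron counting and strand setting are not given in the sources used here.

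Of 21600 barcodes at E18.5 and 12216 at P3, those less than 3 median absolute deviations below the median log UMIs and log genes were kept, if their mitochondrial share exceeded the median by no more than 3 deviations or 0.5 percentage points, whichever was more. Scrublet, run through scanpy 1.11.5 with 0.1 as the expected rate, called 16.6% and 17.4% of nuclei doublets. They were kept, and clusters with over 50% doublets stayed unnamed. Size factors came from scran 1.30.0 (R 4.3.3), and 2000 variable genes, 50 components and 10 neighbours gave Walktrap clusters with bluster 1.12.0 and igraph 2.1.4. The 6 genes and the wider list, but not antisense neighbours, were left out of the variable genes. A cluster was named from 17 marker lists when at least 3 markers with at least 10 UMIs were 2-fold above all remaining nuclei after 10 CPM had been added to each side, and no other list came to 0.8 of its share.

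UMIs were summed per class with Python 3.11.15, numpy 2.4.6, scipy 1.17.1 and pandas 2.3.3. Levels have exact Poisson intervals, ratios exact conditional binomial intervals and shares of nuclei exact binomial intervals. The genes named are the 6, the wider list, class markers, Tsc2 and, for each of the 6, the 5 genes with the highest lower r of the libraries. An item of that rule and the results that need it are not reported here. Leading genes of clusters, and the ratios of antisense neighbours, were named after their values were seen. Members and lists were chosen with earlier results of these data known. Of 32285 identifiers, 32158 were found in GENCODE M21, used for positions. The ratio intervals and the naming were tested on simulated data. Alternatives left out doublets, used Leiden clusters, weighted nuclei equally, changed depth and quality limits or scaled by the median gene.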

Additional observations from a re-analysis of the deposited data

Results flagged for a closer look

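In 4 contrasts between classes, of 216 compared for the 6 genes, the direction turned between the ages by at least 1.2-fold at both. With 1 library per age, the difference between the ages was not tested. For Bicc1, collecting duct-like over proximal tubule-like nuclei was 0.828 at E18.5 and 1.59 at P3, and without called doublets these ratios were 0.835 and 1.62. For Bicc1, distal nephron precursor-like over proximal tubule-like nuclei was 0.691 at E18.5 and 1.476 at P3, and 1.12 at P3 without the Sgcz-led cluster (interval 1.07 to 1.17). For Pkhd1, the same contrast was 0.616 at E18.5 and 1.201 at P3, and 1.002 at P3 without the Sgcz-led cluster (interval 0.970 to 1.04), so that this turn rests on the 98 nuclei of that cluster. For Pkhd1, collecting duct-like over intercalated-like nuclei was 2.34 at E18.5 and 0.831 at P3, with 81 intercalated-like nuclei at E18.5 and 71 at P3. The collecting duct-like class at P3 was 1 cluster of 146 nuclei with 5 of 7 markers raised. An unnamed P3 cluster of 281 nuclei had 6 of 7 collecting duct markers raised and is not in this contrast. Its Pkhd1 level was 2550 CPM, above the 1554 CPM of intercalated-like nuclei, so that this turn depends on the naming of clusters.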

How the results depend on the processing

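Of 81 values recomputed under an alternative, 56 stayed within the counting interval of the reported value or, for counts and shares of genes, within 1.5 times of it, and no ratio whose interval excluded 1 turned in direction. With Leiden clusters, the leading class over the next was 1.29 for Bicc1 and 1.43 for Glis3 at E18.5, and 1.95 for Bicc1, 2.19 for Pkhd1 and 0.683 for Glis3 at P3, so that the order of Glis3 at P3 depends on the clustering. Of the 12 ratios of this kind, 9 could be computed. Those of Pkhd1, Pkd2 and Glis2 at E18.5 could not, since no Leiden cluster at E18.5 was named distal tubule-like. There, Slc12a3 led a cluster of 1191 nuclei with Nrcam and Sim2 also among its leading genes, which stayed unnamed because another class was close. The place of distal tubule-like nuclei in the order at E18.5 thus rests on the Walktrap clusters. For P3 over E18.5 in all nuclei, leaving out called doublets gave 1.36 for Pkd1, 2.23 for Pkhd1 and 1.57 for Glis3. Equal weight per nucleus gave 1.44 for Pkd1, 1.24 for Pkd2, 2.14 for Pkhd1, 1.43 for Glis2 and 1.56 for Glis3, so that 3 members rather than 4 passed 1.5-fold. Scaling by the median gene gave 1.38 for Pkd1, 1.28 for Pkd2, 2.39 for Pkhd1, 1.77 for Bicc1, 1.74 for Glis2 and 1.65 for Glis3. In distal nephron precursor-like nuclei, using only clusters that share leading genes, chosen after seeing the data, gave 2.28 for Pkhd1, 2.01 for Bicc1, 1.60 for Glis2 and 1.60 for Glis3. The causes were not tested. Low counts limit Pkd1 and Glis2 in small classes. No paired analysis was possible because each age has 1 library and the groups share only 1 replicate number.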
